A study of Mus musculus with 2 samples.

Results

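The translation initiation and elongation factor genes of the mouse were described in 2 RNA-seq libraries of the thymus. They are the protein-coding genes whose symbol begins with Eif1 to Eif6, Eef1 or Eef2, without the Y-linked gene Eif2s3y, and the rule used no measured value. GENCODE M21 holds 68 protein-coding genes with such symbols. Of these, Eif2s3y was left out and Eef1akmt4 has no entry of its own in the gene tables, so 66 genes remained of the 43346 genes in the tables. They lie on 20 chromosomes, and 54 of them are Eif genes.

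Both libraries come from thymus of C57BL/6J mice aged 8 weeks, an inbred strain, with no treatment or engineered allele named in the labels. They are biological replicates 2 and 1 of a single group, each labelled as pooled from males and females, with a biosample of its own but the same donor entry. No condition was compared: the data give levels in the thymus and the difference between these libraries, which may be technical in part. Replicate 2 held 63.1 M estimated fragments over all features and replicate 1 held 49.3 M, of which the translation factor genes took 0.829 M in replicate 2 and 0.691 M in replicate 1. All levels are in TPM, the share of transcripts scaled to the same sum in every library after division by length, and with n = 2 any spread rests on a single difference.

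Translation of an mRNA begins when eIF2 carries the initiator tRNA to the small ribosomal subunit, where eIF1, eIF1A, eIF3 and eIF5 help to find the start codon, while the cap-binding protein eIF4E, the scaffold eIF4G and the helicase eIF4A bring the mRNA. eIF2B recharges eIF2 with GTP, and stress kinases that phosphorylate eIF2 block this step. After the subunits join, eEF1A brings each aminoacyl-tRNA, the eEF1B complex recharges eEF1A, and eEF2 moves the ribosome along the mRNA. In the thymus these genes serve thymocytes, which divide rapidly before selection and then rest.

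The tissue label was checked against markers. All 8 thymocyte markers, among them Cd3e, Cd4, Cd8a, Rag1 and Ptcra, were at or above 10 TPM and summed to 2563 TPM in replicate 2 and 2670 TPM in replicate 1. All 7 markers of thymic epithelium were at or above 10 TPM as well, with sums of 1354 TPM in replicate 2 and 1024 TPM in replicate 1. Markers of other tissues were present too. Sums were 918 TPM in replicate 2 and 1305 TPM in replicate 1 for the 5 fat markers, 39.7 TPM in replicate 2 and 46.3 TPM in replicate 1 for the 3 B cell markers, and 3150 TPM in replicate 2 and 2459 TPM in replicate 1 for the 2 globin genes. The 4 oocyte markers were all under 1 TPM on average. Of the fat markers, Ucp1, the uncoupling protein of brown fat, had 124 TPM in replicate 2 and 346 TPM in replicate 1, and it and Cidea were past 1.5-fold and lower in replicate 2. The libraries also stood apart in muscle and liver markers and in Y-linked genes, and those values are given with the ratios between the libraries.

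Translation factor genes were expressed widely and highly in the thymus. A mean of at least 1 TPM was reached by 64 of the 66 genes (97.0%, against 60.3% of all protein-coding genes in the tables). A mean of at least 10 TPM was reached by 54 genes (81.8%, against 36.2%), of at least 100 TPM by 21 genes (31.8%, against 7.37%) and of at least 1000 TPM by 2 genes (3.03%, against 0.438%). Their median mean level was 45.0 TPM, against 3.30 TPM for all protein-coding genes and 15.5 TPM for those with at least 1 TPM. Together they took 1.10% of all TPM in replicate 2 and 1.24% in replicate 1. The 7 genes Eef1a1, Eef1a2, Eef1b2, Eef1d, Eef1e1, Eef1g and Eef2 made up 51.5% of that sum in replicate 2 and 52.8% in replicate 1. The 54 Eif genes made up nearly all of the rest, with 5262 TPM in replicate 2 and 5787 TPM in replicate 1. They include eIF5A, the eIF2 kinases and the eIF4E inhibitors, not initiation factors alone.

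The genes under 1 TPM were Eif4e1b and Eef1akmt3. Eif4e1b, an eIF4E form known from oocytes, had 2 fragments in replicate 2 and 2 fragments in replicate 1. Eef1akmt3, a lysine methyltransferase of eEF1A, had 0.11 TPM in replicate 2 and 0.07 TPM in replicate 1, from 13 fragments in replicate 2 and 6 fragments in replicate 1. Both were at or near the limit of what the libraries could show, and an absence of either is not shown.

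**Figure D1:**
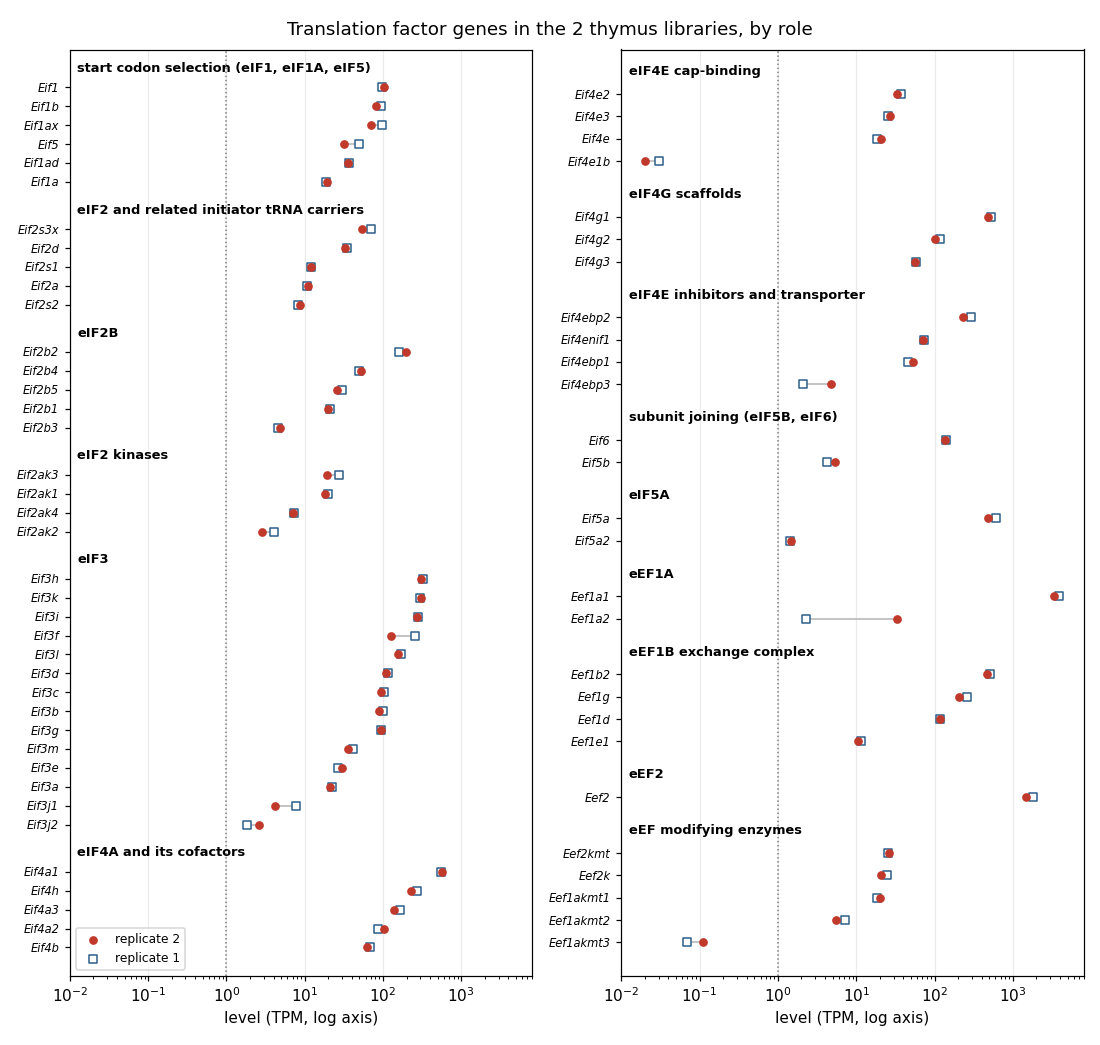
Level in TPM (log axis) of each of the 66 translation factor genes, grouped by role, with filled circles for replicate 2 and open squares for replicate 1, and a dotted line at 1 TPM. Eef1a1 and Eef2 lie above 1000 TPM in both libraries, Eif4e1b and Eef1akmt3 lie under 1 TPM, and the widest gap between libraries is at Eef1a2.

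The plot of levels by role shows that most points of replicate 2 and replicate 1 lie on top of each other, with Eef1a2 as the widest exception, and that role groups differ in median. The eIF2 group had a median of 11.99 TPM, the eIF2 kinases of 13.1 TPM and the eIF4E group of 22.9 TPM. The eIF3 group had a median of 96.4 TPM, the eIF4A group of 151 TPM and the eEF1B group of 175 TPM. Over protein-coding transcripts the eEF1B median was 71.2 TPM, below the eIF3 median of 96.4 TPM. That order rests on group membership, since the eEF1B group includes Eef1e1 and the eIF3 group includes the eIF3j genes. Without these genes, the medians over protein-coding transcripts were 107 TPM for eEF1B and 106 TPM for eIF3. Without length scaling, the full groups had medians of 121.6 CPM for eEF1B and 134.5 CPM for eIF3.

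Features that the symbols do not carry were then read from the sequence and the annotation. Of the 66 genes, 50 had a promoter in the RefSeq table for GRCm38.p6, from 250 bases before to 50 bases after an annotated start. The 16 others were Eef1akmt1, Eef1akmt3, Eef1d, Eef1g, Eif1a, Eif2b3, Eif3e, Eif3h, Eif3i, Eif3j2, Eif4e1b, Eif4e3, Eif4ebp1, Eif4ebp3, Eif4g2 and Eif6. The motif CACGTG, an E-box that reads the same on both strands, was in the window of 12 of the 50 genes (24%), against 9.24% of 16317 genes with a promoter in the table and 12.3% of the 6216 with a mean of at least 10 TPM. The 12 genes were Eef2, Eef2k, Eif1b, Eif3a, Eif3f, Eif3k, Eif4a1, Eif4e, Eif4g1, Eif4h, Eif5a and Eif5a2. The motif CCGGAAG, the core of ETS sites, was present on either strand in 17 genes (34%), against 13.5% of all genes and 22.7% of those with at least 10 TPM. GGGCGG, a GC box, was present on either strand in 37 genes (74%), against 51.4% and 71.7%. TGACGTCA, the cAMP response element, which reads the same on both strands, was in 1 gene, Eef2 (2%, against 2.66% and 3.31%). The motifs were searched separately, matches of different motifs may overlap, and a match describes letters in a window, not a bound site.

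E-box windows are shown for 6 of the more highly expressed genes with the motif, with CACGTG in capitals and 20 bases on each side. Eif5a, whose mean level lies above that of Eif4g1, is not among the 6. All windows are 5′ to 3′ on the strand of the gene, from RefSeq on GRCm38.p6.
Eef2, chr10:81176568-81176613, plus strand: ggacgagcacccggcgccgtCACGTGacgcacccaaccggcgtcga
Eif4a1, chr11:69672587-69672632, minus strand: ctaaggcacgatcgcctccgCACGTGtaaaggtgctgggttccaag
Eif4g1, chr16:20672653-20672698, plus strand: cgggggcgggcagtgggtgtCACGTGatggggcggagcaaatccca
Eif4h, chr5:134639480-134639525, minus strand: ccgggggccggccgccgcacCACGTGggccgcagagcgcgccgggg
Eif3k, chr7:28981907-28981952, minus strand: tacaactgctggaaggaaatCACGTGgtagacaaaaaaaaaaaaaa
Eif3f, chr7:108934327-108934372, plus strand: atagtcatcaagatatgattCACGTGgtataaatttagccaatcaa

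Many mRNAs of the translation apparatus are known to start with a cytosine followed by a run of pyrimidines, the 5′ terminal oligopyrimidine motif through which mTORC1 controls their translation. A C followed by at least 5 bases that are each C or T, beginning within 5 bases of an annotated start on the strand of the gene, was found in 8 of the 50 genes (16%), against 11.9% of all genes and 13.2% of those with at least 10 TPM. The 8 genes were Eef1a1, Eif2ak4, Eif2b2, Eif2b5, Eif2s3x, Eif3f, Eif3l and Eif4g1. The share lies near that of the other genes. It rests on annotated starts, and the 5′ ends of the mRNAs were not mapped. Genes without a promoter in the table, among them Eef1d, Eef1g, Eif3e and Eif3h, were not searched. The share therefore does not tell how many of these mRNAs begin with the motif. Windows of 30 bases are shown for 3 of these genes, with the run in capitals. Eif4g1 and Eif2b2, whose mean levels lie above that of Eif3l, are not among the 3.
Eef1a1, chr9:78481710-78481739, minus strand: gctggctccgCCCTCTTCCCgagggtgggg
Eif3f, chr7:108934400-108934429, plus strand: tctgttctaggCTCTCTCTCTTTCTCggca
Eif3l, chr15:79075208-79075237, plus strand: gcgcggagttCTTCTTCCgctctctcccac

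Host genes of small nucleolar RNAs (snoRNAs), which guide the chemical modification of ribosomal RNA and are often carried in introns, were found among the translation factor genes. Of the 64 genes with at least 1 TPM, 9 hold an annotated snoRNA gene on the same strand (14.1%, against 1.58% of all protein-coding genes with at least 1 TPM). They are Eef1b2, Eef2, Eif2ak3, Eif3a, Eif4a1, Eif4a2, Eif4g1, Eif4g2 and Eif5. They hold 18 annotated snoRNA gene entries of 35 to 178 bases, and all 18 lie outside the exons of the protein-coding transcripts of their host. Eif4a2 holds 5 of the 18 and Eif4a1 holds 3. In Eef1b2, the Gm26457 entry of 35 bases lies wholly inside another of the same name of 78 bases. The libraries were made from RNA longer than 200 nucleotides, and 15 of the 17 snoRNA genes in the tables had 0 fragments in both libraries, so the levels of the snoRNAs were not measured here.

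The 3 box C/D snoRNAs with a Snord name are shown because the boxes that define their class can be read in the letters, with box C (TGATGA, searched in the first 20 bases) and box D (CTGA, searched in the last 20 bases) in capitals. The sequences are from GENCODE M21 on GRCm38, 5′ to 3′ on the strand of the host, and TGATGA was not found in the first 20 bases of Snord2.
Snord37 in Eef2, chr10:81178950-81179013, plus strand: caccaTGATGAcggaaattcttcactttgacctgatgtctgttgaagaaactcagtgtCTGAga
Snord66 in Eif4g1, chr16:20684239-20684313, plus strand: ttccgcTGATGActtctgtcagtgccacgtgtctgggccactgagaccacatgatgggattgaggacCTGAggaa
Snord2 in Eif4a2, chr16:23108953-23109021, plus strand: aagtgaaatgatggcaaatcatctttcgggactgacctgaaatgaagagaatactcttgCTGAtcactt

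Among the start codon factors, Eif1, which keeps the scanning ribosome in an open state, had 103 TPM in replicate 2 and 98.4 TPM in replicate 1. Its paralogue Eif1b had 80.8 TPM in replicate 2 and 94.6 TPM in replicate 1. The ratio of Eif1 to Eif1b was 1.28 in replicate 2 and 1.04 in replicate 1, so their levels were close in both libraries. Eif1ad, which encodes a protein related to eIF1A, had 36.0 TPM in replicate 2 and 37.0 TPM in replicate 1. Eif5, which makes eIF2 hydrolyse its GTP at the start codon, had 31.8 TPM in replicate 2 and 49.6 TPM in replicate 1, a difference taken up with the other genes that differed between the libraries.

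The gene for eIF1A is present on the X chromosome as Eif1ax and on chromosome 18 as Eif1a. Summed over all transcripts, Eif1ax had 70.2 TPM in replicate 2 and 96.7 TPM in replicate 1, while Eif1a had 19.1 TPM in replicate 2 and 18.5 TPM in replicate 1. That order turned round when only transcripts classed as protein-coding in GENCODE M21 were summed, since Eif1ax then averaged 2.63 TPM and Eif1a averaged 18.8 TPM. A retained-intron transcript of 416 bases, Eif1ax-202, took 96.3% of the TPM of Eif1ax in replicate 2 and 97.2% in replicate 1. It took a smaller share of the fragments of the gene, 51.5% in replicate 2 and 58.6% in replicate 1, because TPM divides by length.

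The subunits of eIF2 were not at equal levels. Eif2s3x, the X-linked gene of the gamma subunit that binds GTP and the initiator tRNA, had 53.4 TPM in replicate 2 and 69.5 TPM in replicate 1. Eif2s1, the alpha subunit that the stress kinases phosphorylate, had 11.9 TPM in replicate 2 and 12.1 TPM in replicate 1. Eif2s2, the beta subunit, had 8.71 TPM in replicate 2 and 8.11 TPM in replicate 1. The gamma subunit stood above both others in each library, and the highest subunit exceeded the lowest 7.31-fold on average, with 6.13-fold in replicate 2 and 8.57-fold in replicate 1. Of the factors that can deliver tRNA to the ribosome without eIF2, Eif2d had 33.0 TPM in replicate 2 and 34.6 TPM in replicate 1, and Eif2a had 11.0 TPM in replicate 2 and 10.9 TPM in replicate 1.

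eIF2B, the exchange factor of eIF2, is made of subunits alpha to epsilon, encoded by Eif2b1 to Eif2b5. Eif2b2 (beta) had 198 TPM in replicate 2 and 161 TPM in replicate 1, and Eif2b4 (delta) had 51.7 TPM in replicate 2 and 49.96 TPM in replicate 1. Eif2b5, the catalytic epsilon subunit, had 25.8 TPM in replicate 2 and 30.1 TPM in replicate 1, and Eif2b1 (alpha) had 19.9 TPM in replicate 2 and 21.3 TPM in replicate 1. Eif2b3 (gamma) was the lowest, with 4.80 TPM in replicate 2 and 4.54 TPM in replicate 1. The order of the subunits was the same in both libraries. The highest exceeded the lowest 38.4-fold over all transcripts and 15.4-fold over protein-coding transcripts, because a retained-intron transcript of 587 bases, Eif2b2-203, took 63.5% of the TPM of Eif2b2 in replicate 2 and 57.3% in replicate 1.

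The 4 kinases of eIF2 respond to different stresses. Eif2ak3 (PERK), which senses unfolded protein in the endoplasmic reticulum, had 19.0 TPM in replicate 2 and 27.2 TPM in replicate 1. Eif2ak1 (HRI), which responds to lack of heme, had 18.0 TPM in replicate 2 and 20.02 TPM in replicate 1, and the values of these genes overlap. Eif2ak4 (GCN2), which senses uncharged tRNA, was lower, with 7.13 TPM in replicate 2 and 7.40 TPM in replicate 1. Eif2ak2 (PKR), which senses double-stranded RNA and is induced by interferon, was the lowest in both, with 2.86 TPM in replicate 2 and 4.07 TPM in replicate 1.

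Of 10 genes known to act in the stress response downstream of eIF2, 9 had a mean of at least 1 TPM and 6 of at least 10 TPM, with a median of 17.4 TPM. Atf4, the transcription factor whose translation goes up when eIF2 is phosphorylated, was the highest, with 137 TPM in replicate 2 and 136 TPM in replicate 1. Chac1, a glutathione-degrading enzyme, was the lowest, with 0.84 TPM in replicate 2 and 0.88 TPM in replicate 1. These are mRNA levels, and neither phosphorylation nor translation was measured.

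eIF3, the largest initiation factor, binds the small ribosomal subunit and links it to eIF4G. Its 12 subunit genes other than the eIF3j genes spanned a 14.6-fold range of mean TPM, with 14.4-fold in replicate 2 and 14.8-fold in replicate 1. Eif3h had 307 TPM in replicate 2 and 327 TPM in replicate 1, Eif3k had 302 TPM in replicate 2 and 294 TPM in replicate 1, and Eif3i had 276 TPM in replicate 2 and 277 TPM in replicate 1. These 3 genes headed the complex, together with Eif3f in replicate 1 alone, where it had 259 TPM, against 127 TPM in replicate 2. Eif3l had 157 TPM in replicate 2 and 171 TPM in replicate 1, and Eif3d, which can itself bind the cap of some mRNAs, had 110 TPM in replicate 2 and 117 TPM in replicate 1.

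Eif3c, Eif3b and Eif3g, which belong to the core shared with yeast, lay close to each other. Eif3c had 93.8 TPM in replicate 2 and 104 TPM in replicate 1. Eif3b had 88.4 TPM in replicate 2 and 99.9 TPM in replicate 1. Eif3g had 93.0 TPM in replicate 2 and 93.4 TPM in replicate 1. Eif3c was the highest of the 3 in each library by a small margin, and Eif3b and Eif3g changed places. Eif3a, the largest subunit and also part of that core, was the lowest of the 12, with 21.3 TPM in replicate 2 and 22.1 TPM in replicate 1. Eif3e had 30.0 TPM in replicate 2 and 26.6 TPM in replicate 1, and Eif3m had 36.3 TPM in replicate 2 and 41.0 TPM in replicate 1. The highest and lowest of the 12 mRNAs thus differed more than any of them did between the libraries. Close ones such as Eif3b and Eif3g did not, and protein amounts were not measured.

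The loosely bound subunit eIF3j has 2 genes of nearly the same sequence, Eif3j1 and Eif3j2, whose reads a quantifier must divide, so their split is uncertain. Eif3j1 had 4.21 TPM in replicate 2 and 7.81 TPM in replicate 1. Eif3j2 had 2.59 TPM in replicate 2 and 1.83 TPM in replicate 1. Their sum was 6.80 TPM in replicate 2 and 9.64 TPM in replicate 1. Over protein-coding transcripts alone the ratio of Eif3j1 to Eif3j2 was 0.898, against 2.72 over all transcripts.

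**Figure D2:**
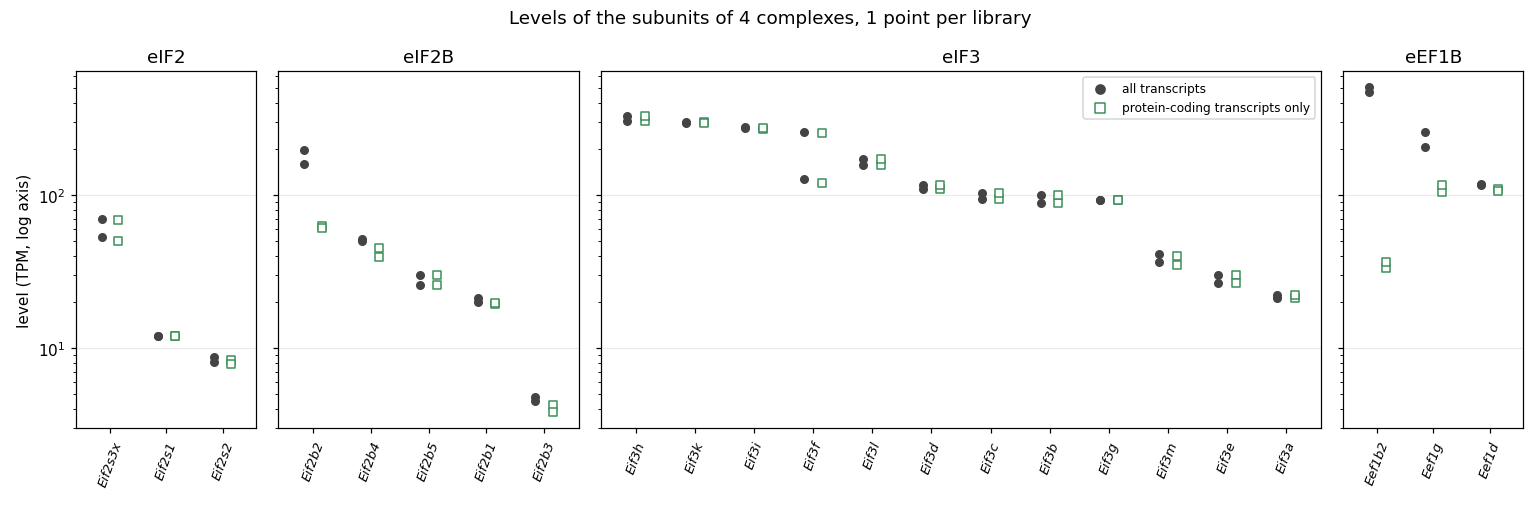
Level in TPM (log axis) of each subunit gene of eIF2, eIF2B, eIF3 (without eIF3j) and eEF1B, with 1 point per library, filled for all transcripts and open for protein-coding transcripts alone. Open and filled points lie close for most eIF3 and eIF2 genes and apart for Eif2b2, Eef1b2 and Eef1g.

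The plot of complex subunits shows where the annotation of transcripts decides the level. In eIF3 and eIF2 the choice of transcripts made little difference, but for many of these genes it could make none. Eif2s1, Eif3a, Eif3b, Eif3c, Eif3d, Eif3e, Eif3g, Eif3h, Eif3k and Eif3l each had only 1 quantified transcript, which is protein-coding. In eEF1B it moved Eef1b2 from the highest to the lowest place.

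The helicase eIF4A unwinds the leader of the mRNA. Eif4a1 had 565 TPM in replicate 2 and 555 TPM in replicate 1, Eif4a2 had 104 TPM in replicate 2 and 86.1 TPM in replicate 1, and Eif4a3, which belongs to the exon junction complex, had 140 TPM in replicate 2 and 163 TPM in replicate 1. Eif4a1 exceeded Eif4a2 5.45-fold in replicate 2 and 6.44-fold in replicate 1, and Eif4a3 4.03-fold in replicate 2 and 3.41-fold in replicate 1. Over protein-coding transcripts the mean ratio of Eif4a1 to Eif4a2 was 3.48 and that of Eif4a1 to Eif4a3 only 1.14. The processed pseudogene Eif4a-ps4 was listed at 33.96 TPM in replicate 2 and 48.5 TPM in replicate 1, and whether it shares reads with Eif4a1 was not examined. Of the proteins that stimulate the helicase, Eif4h had 225 TPM in replicate 2 and 274 TPM in replicate 1, and Eif4b had 62.9 TPM in replicate 2 and 68.6 TPM in replicate 1.

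Cap-binding proteins were at modest levels. Eif4e, the main cap-binding protein, had 20.5 TPM in replicate 2 and 18.5 TPM in replicate 1. Eif4e2 (4EHP), which binds the cap but not eIF4G and represses translation, had 33.0 TPM in replicate 2 and 37.6 TPM in replicate 1. Eif4e3, an atypical form, had 27.1 TPM in replicate 2 and 25.5 TPM in replicate 1. Eif4e thus had the lowest level of the 3 in both libraries, at 0.621 of Eif4e2 in replicate 2 and 0.492 in replicate 1, and at 0.754 of Eif4e3 in replicate 2 and 0.725 in replicate 1.

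Each scaffold gene was above each cap-binding gene in both libraries, with the smallest margin between Eif4g3 and Eif4e2. Eif4g1, the main scaffold, had 478 TPM in replicate 2 and 523 TPM in replicate 1, Eif4g2 (DAP5), which lacks the eIF4E-binding region, had 102 TPM in replicate 2 and 118 TPM in replicate 1, and Eif4g3 had 55.9 TPM in replicate 2 and 58.5 TPM in replicate 1. The order was the same in both libraries, with Eif4g1 at 8.55 times Eif4g3 in replicate 2 and 8.95 times in replicate 1. Over protein-coding transcripts the mean ratio of Eif4g1 to Eif4g3 was 5.75, and without length scaling the log2 ratio was 1.54, against 3.13 with it. The leading transcript of Eif4g1, of 687 bases, holds only part of the coding sequence but was counted as protein-coding in that ratio of 5.75. This transcript took 38.3% of the TPM of the gene in replicate 2 and 36.9% in replicate 1. It took 12.998% of the fragments of the gene in replicate 2 and 12.1% in replicate 1. Eif4g1-202, of 5394 bases and with the complete coding sequence, had 62.8 TPM in replicate 2 and 72.8 TPM in replicate 1.

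The inhibitors of eIF4E, which mTORC1 inactivates by phosphorylation, were led by Eif4ebp2. It had 232 TPM in replicate 2 and 292 TPM in replicate 1. Eif4ebp1 had 52.6 TPM in replicate 2 and 46.0 TPM in replicate 1, which is 0.227 of Eif4ebp2 in replicate 2 and 0.158 in replicate 1. Eif4ebp3 had 4.73 TPM in replicate 2 and 2.10 TPM in replicate 1. Eif4enif1, which carries eIF4E into the nucleus, had 70.6 TPM in replicate 2 and 73.8 TPM in replicate 1. Of 15 genes of mTORC1 and its regulators and kinases of this step, all 15 had at least 1 TPM and 12 at least 10 TPM, with a median of 35.1 TPM. Mknk2, a kinase that phosphorylates eIF4E, was the highest of them, with 459 TPM in replicate 2 and 503 TPM in replicate 1, and Deptor, an inhibitor of mTOR, was the lowest, with 2.82 TPM in replicate 2 and 3.86 TPM in replicate 1.

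Among 16 poly(A)-binding proteins and other partners of initiation, all 16 had at least 1 TPM and 8 at least 10 TPM, with a median of 12.1 TPM. Pabpc1, which bridges the poly(A) tail and eIF4G, led with 327 TPM in replicate 2 and 449 TPM in replicate 1. Ctif, which acts with the nuclear cap-binding complex, was the lowest, with 1.97 TPM in replicate 2 and 2.21 TPM in replicate 1. In the steps of subunit joining, Eif6, which keeps free large subunits apart from small ones, had 138 TPM in replicate 2 and 142 TPM in replicate 1. Eif5b, the GTPase of subunit joining, had 5.29 TPM in replicate 2 and 4.29 TPM in replicate 1.

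eIF5A, which carries the modified lysine hypusine and helps ribosomes through difficult peptide bonds, came almost wholly from Eif5a. Eif5a had 489 TPM in replicate 2 and 604 TPM in replicate 1, and Eif5a2 had 1.49 TPM in replicate 2 and 1.44 TPM in replicate 1. The ratio of Eif5a to Eif5a2 was 328 in replicate 2 and 420 in replicate 1. The hypusine enzymes Dohh and Dhps and the 6 Dph enzymes that make diphthamide on eEF2 all had at least 1 TPM, with a median of 24.3 TPM. Dohh was the highest, with 108 TPM in replicate 2 and 110 TPM in replicate 1, and Dph5 the lowest, with 6.63 TPM in replicate 2 and 6.68 TPM in replicate 1.

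eEF1A was the most abundant of all translation factor mRNAs. Eef1a1 had 3352 TPM in replicate 2 and 3874 TPM in replicate 1, which placed it at rank 10 by mean level among all protein-coding genes. Eef1a2, the form known from heart, skeletal muscle and neurons, had 33.6 TPM in replicate 2 and 2.29 TPM in replicate 1. Eef1a1 exceeded Eef1a2 99.9-fold in replicate 2 and 1692-fold in replicate 1, so the margin between these genes depends on the library although the order does not.

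Eef2, the translocase, was the next most abundant, with 1478 TPM in replicate 2 and 1791 TPM in replicate 1 and rank 46 among protein-coding genes. Together Eef1a1 and Eef2 made up 43.9% of the TPM of all translation factor genes in replicate 2 and 45.6% in replicate 1. The enzymes that modify the elongation factors were far lower. Eef2kmt, a lysine methyltransferase of eEF2, had 26.3 TPM in replicate 2 and 25.8 TPM in replicate 1. Eef2k, the kinase that inactivates eEF2, had 20.4 TPM in replicate 2 and 24.5 TPM in replicate 1. Of the methyltransferases of eEF1A, Eef1akmt1 had 20.3 TPM in replicate 2 and 18.3 TPM in replicate 1, and Eef1akmt2 had 5.52 TPM in replicate 2 and 7.27 TPM in replicate 1.

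In the eEF1B exchange complex, Eef1b2 and Eef1d, which carry the exchange activity, and the structural subunit Eef1g changed places with the transcripts counted. Over all transcripts Eef1b2 had 473 TPM in replicate 2 and 507 TPM in replicate 1, Eef1g had 207 TPM in replicate 2 and 258 TPM in replicate 1, and Eef1d had 118 TPM in replicate 2 and 116 TPM in replicate 1. Over protein-coding transcripts Eef1b2 was the lowest in both libraries, with 33.4 TPM in replicate 2 and 36.6 TPM in replicate 1. Eef1g had 105 TPM in replicate 2 and 116 TPM in replicate 1, all from Eef1g-201, which holds the complete coding sequence. Eef1d had 109 TPM in replicate 2 and 106 TPM in replicate 1, so the higher of these genes differed by library. Several Eef1d transcripts in that sum hold only part of the coding sequence. The highest of them, Eef1d-215, had 37.4 TPM in replicate 2 and 28.8 TPM in replicate 1. The order of Eef1g and Eef1d thus depends on counting such transcripts. Eef1e1, which encodes a related protein of the tRNA synthetase complex, had 10.6 TPM in replicate 2 and 11.6 TPM in replicate 1.

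Factors that follow elongation, or that serve mitochondrial ribosomes, were lower. The 5 genes of termination and ribosome rescue had a median of 17.9 TPM. Gspt1, the release factor eRF3a, was the highest, with 23.5 TPM in replicate 2 and 38.1 TPM in replicate 1, and its paralogue Gspt2 the lowest, with 0.48 TPM in replicate 2 and 0.74 TPM in replicate 1. The 10 mitochondrial translation factors had a median of 11.5 TPM. Tufm, the mitochondrial counterpart of eEF1A, had 94.1 TPM in replicate 2 and 106 TPM in replicate 1, and Mtrf1, a mitochondrial release factor, had 1.19 TPM in replicate 2 and 1.14 TPM in replicate 1.

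Levels of a gene summed over all its annotated transcripts include short transcripts that encode no full protein. Some transcripts classed as protein-coding also hold only part of the coding sequence, and they were counted as protein-coding here. In Eef2kmt, such a transcript took 54.8% of the TPM and the complete one 15.8%, as means of both libraries. Of the 64 translation factor genes with at least 1 TPM, 10 drew under 50% of their TPM from protein-coding transcripts (15.6%, against 13.5% of all protein-coding genes with at least 1 TPM). That share is near the background, and the median share of protein-coding transcripts was 98.9%, against 98.3%. The 10 genes were Eif1ax (3.15%), Eef1b2 (7.13%), Eif4a1 (27.2%), Eif5b (28.7%), Eif2a (31.4%), Eif3j1 (33.0%), Eif2b2 (34.5%), Eif4a2 (46.1%), Eef1g (47.4%) and Eef1akmt2 (47.5%).

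The leading transcripts of these genes were of several classes. For Eif4a1 it was Eif4a1-201, a transcript of 813 bases that the annotation classes as a target of nonsense-mediated decay, with 338 TPM in replicate 2 and 333 TPM in replicate 1. It took 59.8% of the TPM of the gene in replicate 2 and 60.1% in replicate 1, but 39.4% of its fragments in replicate 2 and 39.0% in replicate 1. For Eif5b it was the processed transcript Eif5b-203 of 578 bases, with 54.0% of the TPM in replicate 2 and 52.1% in replicate 1 but 6.30% of the fragments in replicate 2 and 5.35% in replicate 1. The full-length transcript Eif5b-201, of 7797 bases, had 1.33 TPM in replicate 2 and 1.42 TPM in replicate 1. The classes are those of the annotation, and whether these short transcripts are made, decay or stem from the division of reads was not tested.

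Over the 40 translation factor genes with at least 2 annotated transcripts and 1 TPM, the leading transcript took a median of 63.7% of the TPM, against 66.7% for all such protein-coding genes. It was not protein-coding in 9 of the 40 (22.5%, against 16.7%). Transcripts without an entry in GENCODE M21 were counted as not protein-coding, in these percentages and in the shares of TPM. The same transcript led in both libraries in 36 of the 40, and the 4 exceptions were Eef1b2, Eef1d, Eif1a and Eef1g. In Eif1a, Eif1a-201 took 53.3% in replicate 2 and 42.9% in replicate 1, while Eif1a-202 took 46.7% in replicate 2 and 57.1% in replicate 1, and both are protein-coding.

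**Figure D3:**
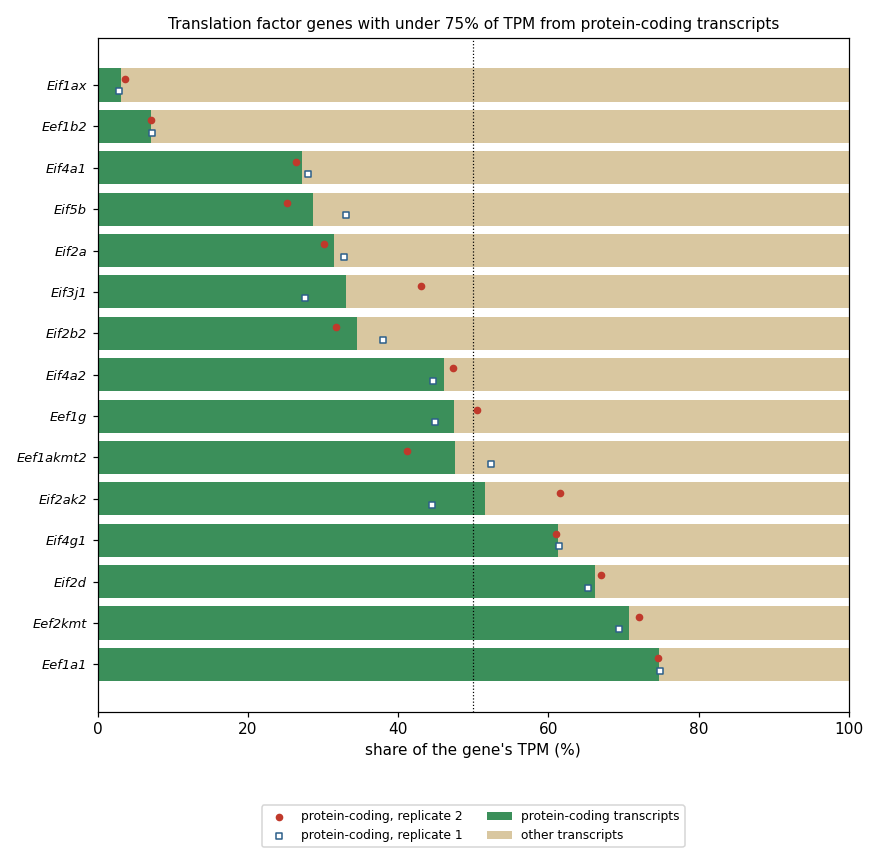
Share of the TPM of a gene (%) from protein-coding transcripts (green, mean of both libraries) and from other transcripts (tan), for the 15 translation factor genes with at least 1 TPM and under 75% from protein-coding transcripts. Filled circles give the protein-coding share in replicate 2 and open squares that in replicate 1, and the dotted line marks 50%.

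The plot of transcript classes shows shares that repeat closely between the libraries for Eif1ax, Eef1b2 and Eif4a1 and less closely for Eif3j1, where protein-coding transcripts took 43.0% in replicate 2 and 27.7% in replicate 1.

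Between the libraries, most translation factor genes differed little. The ratio of replicate 2 to replicate 1 was taken as log2 of (TPM + 0.1) for genes that averaged 1 TPM or more. It was within 1.25-fold for 52 of the 64 genes (81.3%, against 68.1% of all genes with at least 1 TPM). All genes here include non-coding ones, and no share was taken for genes of a like level. The median level was 45.0 TPM for translation factor genes and 15.5 TPM for protein-coding genes with at least 1 TPM. The median log2 ratio was -0.08, against -0.04 for all genes, with 42 of the 64 genes below 0 (65.6%), against 55.7% of all genes, and 22 above. A ratio past 1.5-fold was found in 5 of the 64 genes (7.81%, against 12.0% of the 14360 genes tested and 9.99% of the protein-coding genes among them). With a single library on each side, such a ratio has no replicate check. Of the pathway genes described with their roles, Trib3, a stress response target of ATF4, and Gspt1 were past 1.5-fold, both lower in replicate 2.

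**Figure D4:**
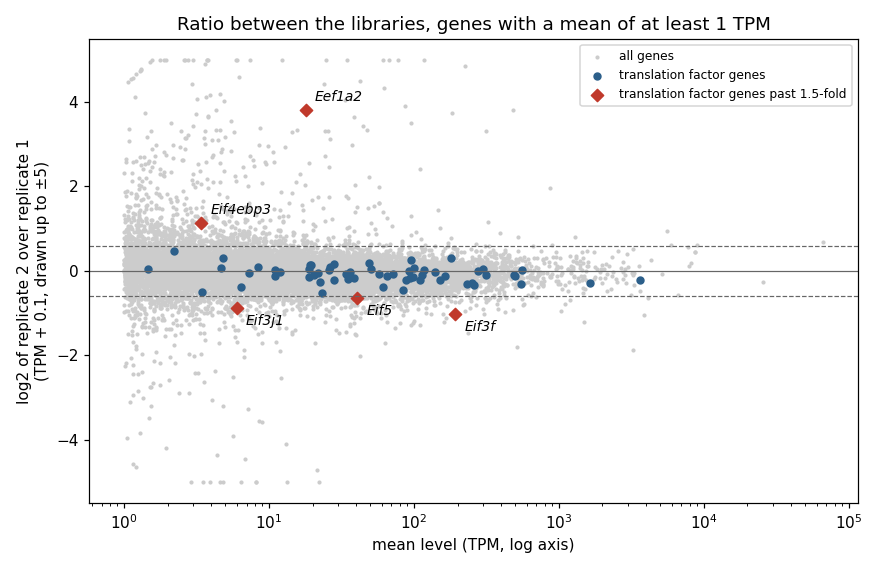
Log2 of the ratio of replicate 2 to replicate 1 against the mean level in TPM (log axis), with all genes of at least 1 TPM in grey, translation factor genes in blue and the 5 past 1.5-fold (dashed lines) as red diamonds. Eef1a2 lies farthest from 0 at 3.82, and Eif3f lies lowest at -1.02.

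The 2 genes past 1.5-fold and higher in replicate 2 (6.35% of all genes tested were) were Eef1a2 and Eif4ebp3. Eef1a2 was 14.7-fold higher, from 3046 fragments in replicate 2 and 150 fragments in replicate 1. Eif4ebp3 was 2.25-fold higher, from 121 fragments in replicate 2 and 39.0 fragments in replicate 1, with a posterior standard deviation of 8.03 fragments in replicate 2 and 4.73 fragments in replicate 1.

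The 3 genes past 1.5-fold and lower in replicate 2 (5.65% of all genes tested were) were Eif3f, Eif3j1 and Eif5. Eif3f, which encodes an eIF3 subunit with a deubiquitinase-like domain, had the most reads behind its value, with 13536 fragments in replicate 2 and 20451 fragments in replicate 1, and was 2.03-fold lower in replicate 2. Its partners in the complex kept near their level, with ratios between 0.885 for Eif3b and 1.13 for Eif3e among the other 11 subunits outside eIF3j. Eif5 was 1.56-fold lower in replicate 2, with 5788 fragments in replicate 2 and 6528 fragments in replicate 1. With TPM rescaled over nuclear protein-coding genes Eif5 was 1.47-fold lower and no longer past 1.5-fold. Eif3j1, 1.86-fold lower in replicate 2, shares reads with Eif3j2. It was 1.18-fold lower over protein-coding transcripts, 1.26-fold lower with counts scaled by TMM and 1.27-fold lower with DESeq2's size factors, none of them past 1.5-fold.

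Markers of heart muscle, a list of 12 genes put together after the values of Eef1a2 were seen, were also higher in replicate 2. The list summed to 2358 TPM in replicate 2 and 161 TPM in replicate 1. Of the 12, 11 had at least 1 TPM on average, and all 11 were past 1.5-fold and higher in replicate 2. Tnni3, the cardiac troponin I, had 898 TPM in replicate 2 and 63.7 TPM in replicate 1, Myl2, a ventricular myosin light chain, had 133 TPM in replicate 2 and 0.66 TPM in replicate 1, and Nppa, the atrial natriuretic peptide, had 154 TPM in replicate 2 and 1.36 TPM in replicate 1. None of the 12 was at 0 in either library.

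Skeletal muscle markers differed too. The 10 genes of that list summed to 194 TPM in replicate 2 and 28.0 TPM in replicate 1, with 3 of the 6 at or above 1 TPM past 1.5-fold and higher in replicate 2. Most of the sum was Ckm, a creatine kinase that the heart also expresses, with 163 TPM in replicate 2 and 10.7 TPM in replicate 1. Acta1, the skeletal muscle actin, had 10.1 TPM in replicate 2 and 0.77 TPM in replicate 1, a 13.1-fold difference. The defining fast myosins Myh1, Myh2 and Myh4 were at or under 0.15 TPM in replicate 2 and at or under 0.03 TPM in replicate 1. The 4 neuron markers summed to 17.4 TPM in replicate 2 and 28.4 TPM in replicate 1. In the other direction, the 4 liver markers summed to 4.95 TPM in replicate 2 and 80.5 TPM in replicate 1, and all 4 were past 1.5-fold. In bulk tissue, more cells of a type and more RNA per cell cannot be told apart, and the part of these tissues in the level of Eef1a2 was not tested.

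**Figure D5:**
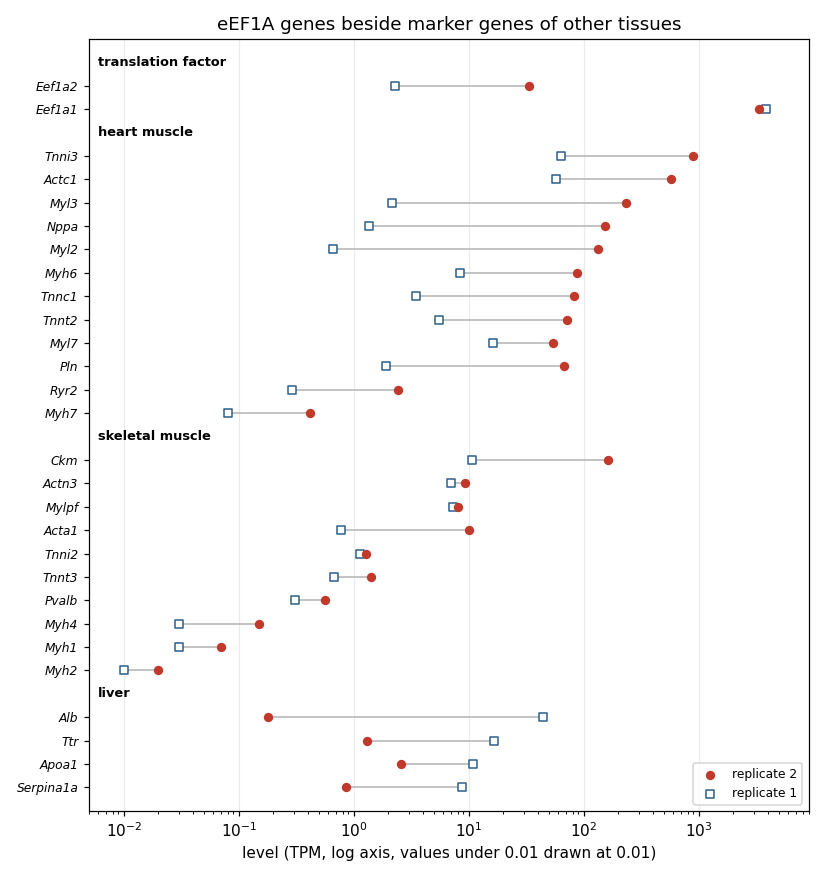
Level in TPM (log axis) of Eef1a2 and Eef1a1 beside markers of heart muscle, skeletal muscle and liver, with filled circles for replicate 2 and open squares for replicate 1. Eef1a2 and all 12 heart markers lie to the right in replicate 2, Eef1a1 lies close in both libraries, and the liver markers lie to the left in replicate 2.

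The plot of marker genes places Eef1a2, at 33.6 TPM in replicate 2 and 2.29 TPM in replicate 1, among genes with a higher level in replicate 2. Its gap was 14.7-fold, and those of the 12 heart markers ran from 3.32-fold for Myl7 to 202-fold for Myl2. That range is wide and the heart list was chosen after Eef1a2 was seen, so a place within it tests nothing. On the skeletal muscle list, the gap was 15.2-fold for Ckm and 13.1-fold for Acta1. It was only 1.33-fold for Actn3, 1.14-fold for Tnni2 and 1.11-fold for Mylpf.

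Eif2s3x and Eif1ax, the 2 translation factor genes on the X chromosome, had lower values in replicate 2 that stayed within 1.5-fold. The ratio of replicate 2 to replicate 1 was 0.767 for Eif2s3x and 0.726 for Eif1ax. The difference of Eif1ax lay in its retained-intron transcript, with 67.6 TPM in replicate 2 and 94.1 TPM in replicate 1, whereas its protein-coding transcript had 2.57 TPM in replicate 2 and 2.69 TPM in replicate 1. Eif2s3x is known to escape X inactivation, and 3 other escape genes, chosen after these values were seen, had ratios of 0.760 for Kdm5c, 0.713 for Ddx3x and 0.841 for Kdm6a. These 3 also stayed within 1.5-fold, and 55.7% of all genes tested had a log2 ratio below 0. Because of how they were chosen, they test nothing about Eif2s3x. The median log2 ratio was -0.02 over 368 genes of the X chromosome and -0.05 over 12564 autosomal genes. The Y-linked copy Eif2s3y had 484 fragments in replicate 2 and 0 in replicate 1, and the Y-linked genes Kdm5d, Uty and Ddx3y were at 7.53, 2.64 and 2.61 TPM in replicate 2 and had 0 fragments in replicate 1. Xist had 52.8 TPM in replicate 2 and 86.9 TPM in replicate 1. The labels name both sexes for each library, and replicate 1 showed no read of these Y-linked genes. The part of the sexes in the values of Eif2s3x and Eif1ax was not tested.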

How the data were processed

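Polyadenylated RNA longer than 200 nucleotides was sequenced as stranded pairs of 76 bases, per the labels. The authors deposited, for each library, expected counts (estimated fragments), posterior mean counts with their standard deviation, and TPM of genes and transcripts, per the file headers. Their percentages of a gene's TPM by transcript (percent, per the file headers) were recomputed from TPM. Features were quantified on mm10 with GENCODE M4, per the text files the authors deposited. Which quantifier and aligner were used is not given in the sources used here. Contig and junction lists on mm9 were not used.

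Gene positions, names and transcript classes are those of GENCODE M21 (GRCm38), matched by gene ID for 42462 of 43346 genes. Means are over both libraries, which form 1 group, so no test between conditions was made and no p-value is given. Ratios are replicate 2 over replicate 1 on log2(TPM + 0.1), which understates changes of low genes. Expected counts were rounded for edgeR's TMM and DESeq2's size factors, used only as other scalings. The ratio step was tested on simulated data. Members and lists were chosen with earlier results of these data known, and the heart, sex-linked and escape gene lists after the values were seen. The genes named were every member of a paralogue set or complex, the highest and lowest of every other group and pathway list, members past 1.5-fold and members under 1 TPM, and some further members were added to account for all. Alternatives changed the abundance estimate, scaling, length scaling, pseudocount, filter and library, and, added after seeing the data, the transcripts summed. Depth limits low genes, and intervals were not computed because fragments shared by features are divided by a model. Work was done in R 4.3.3 with DESeq2 1.42.0 and edgeR 4.0.16, and in Python 3.11.15 with matplotlib 3.10.9, pandas 2.3.3 and numpy 2.4.6.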

Additional observations from a re-analysis of the deposited data

How the results depend on the processing

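The median level of the translation factor genes, 45.0 TPM, became 58.9 TPM when rescaled over nuclear protein-coding genes, 61.8 CPM without length scaling and 37.0 TPM over protein-coding transcripts, and it ranged from 44.0 to 47.8 TPM with each library left out. Without length scaling, the highest over the lowest subunit was 10.7-fold in eIF2, 17.6-fold in eIF2B, 11.3-fold in eIF3 and 3.37-fold in eEF1B. Over protein-coding transcripts it was 15.4-fold in eIF2B and 3.16-fold in eEF1B. The median log2 ratio of replicate 2 to replicate 1 turned from -0.08 to 0.0067 when TPM was rescaled over nuclear protein-coding genes, where the median of all genes was 0.04. The count past 1.5-fold was 3 among genes of at least 10 TPM and stayed within 1.5 times of 5 under the other scalings, pseudocount, filter and transcripts, but the genes differed. Eif3j1 was not past it over protein-coding transcripts, where Eef1akmt2 was (log2 ratio -0.72), nor with TMM or DESeq2's size factors, and Eif5 was not with TPM rescaled over nuclear protein-coding genes. The log2 ratio of Eif1ax to Eif1a, 2.15, turned to -0.43 without length scaling and to -2.84 over protein-coding transcripts, and that of Eif3j1 to Eif3j2, 1.44, to -0.15 over protein-coding transcripts. The other 12 paralogue pairs kept their direction under every alternative run. The log2 ratio of Eef1a1 to Eef1a2 ranged from 6.64 to 10.72 with each library left out. Without length scaling, the medians of eIF2 and the eIF2 kinases were 28.8 and 40.9 CPM, 13 of the 15 role medians and the ratios of 10 further pairs moved by more than the spread between the libraries, and over protein-coding transcripts 7 role medians did. Causes were not tested beyond the transcript shares given with the genes. No paired analysis was possible because the series holds a single group.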
